A study of Solenopsis invicta with 32 samples.

Results

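The difference between overwintered and spring-reared gynes was compared between brain and ovary in the fire ant Solenopsis invicta, over all 32 libraries of the series. The 16 gynes (young queens) each gave 1 brain and 1 ovary, taken as a pair where the colony code in the label was the same, with 1 gyne per colony. There were 4 groups of 8 libraries, brain and ovary of overwintered gynes and brain and ovary of spring-reared gynes. All gynes, in both treatments, were SB/SB at the social supergene and came from monogyne colonies, which hold 1 reproducing queen. Libraries were made with Smart-seq2, which amplifies polyadenylated RNA from small samples and keeps no strand, with an input of 1.6 ng total RNA for brains and 8.0 ng for ovaries, each organ extracted with its own kit.

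A fire ant gyne founds a new colony alone and feeds her first brood from her own body reserves, so her weight at the mating flight bears on her success. Gynes either pass the winter in the parent nest or are reared in spring. The study sought genes tied to plasticity in queen weight. The brain governs mating and founding behaviour, and the ovary makes the eggs. A gene whose treatment difference is not the same in the 2 organs has a brain-to-ovary ratio that differs between the treatments. This ratio was measured within each gyne, so that gyne-to-gyne differences shared by both organs drop out.

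Each library held 9612985 to 23656547 gene counts, spread over 16314 gene models. Identifiers come without gene names, and 0 of 16314 matched the RefSeq gene table (assembly UNIL_Sinv_3.0). Organ labels could therefore not be checked against marker genes, and genes are described by organ, level and rank, with 4 identifiers printed. The colony code starts with one prefix in overwintered gynes and with another in spring-reared gynes, and treatment and prefix cannot be told apart. Kit and RNA input cannot be told apart from organ.

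The brain-to-ovary ratios of 15 of the 16 gynes sorted by treatment on principal component 1, with 20.8% of their variance. Ratios were taken as log2 of CPM + 2 in brain minus the same in ovary, over 10448 genes. Overwintered gynes 2 to 8 lay between 21.4 and 39.7 and the spring-reared gynes between -42.8 and -4.28. Overwintered gyne 1 lay at -28.8, among the spring-reared gynes. Its ovary also stood far from the others on the second component of the ovary libraries, at 54.9 against -12.1 to 5.54 in the rest. Counts of called genes are given with and without this gyne. It was singled out by the same ratios that the interaction tests, which favours more calls without it, so nothing is read from that rise.

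Of 10448 genes tested, 123 had a treatment difference that differed between brain and ovary (1.18%; edgeR quasi-likelihood test, adjusted p under 0.05). In 83 of them (0.794% of genes tested) overwintering was tied to a lower level in brain relative to ovary, and in 40 (0.383%) to a higher one. The interaction value, the brain difference minus the ovary difference on the log2 scale, had a median of -1.02 among the 83, 1.51 among the 40 and 0.05 over all genes tested. It passed 2-fold in 43 of the 83 and in 29 of the 40, against 15.4% of all genes tested. The 8 overwintered and the 8 spring-reared ratios did not overlap in 30 of the 123 genes, against 0.651% of all genes tested. Calling genes by the same contrast favours both large values and ratios without overlap, so nothing is read from these shares. In bulk organs, fewer cells of a type and less RNA per cell cannot be told apart.

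The count moved with the gynes, the block and the method. Without overwintered gyne 1 it was 421, of which 136 were higher and 285 lower, and all 123 genes were among them. Without overwintered gynes 4, 7 or 8, or spring-reared gynes 3 or 7, it was 73 to 80. Without the gyne block, in a model of 4 group means, 285 genes were called, 114 higher and 171 lower, with 107 of the 123 among them. In limma voom 84 genes were higher and 149 lower with the gyne block, and 160 higher and 144 lower with the gyne as a random effect. DESeq2 with the gyne block called 568 genes.

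**Figure D1:**
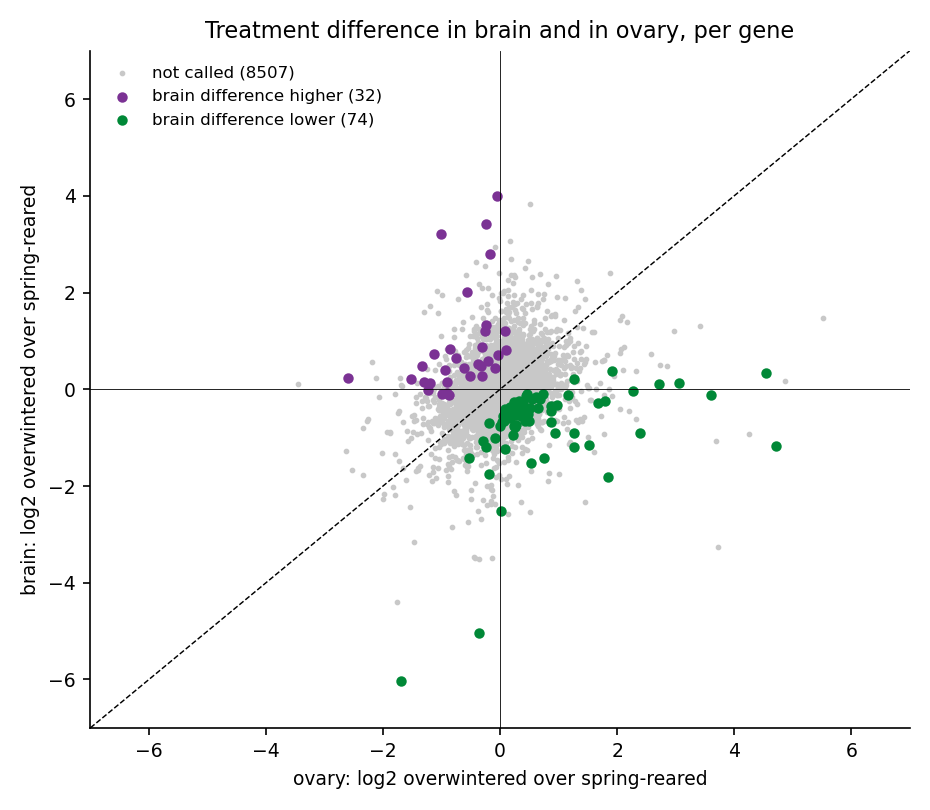
Log2 overwintered over spring-reared in brain (vertical) against ovary (horizontal) for the genes tested in both organ fits, 1 point per gene, with the dashed line marking equal differences. The 32 genes with a higher and the 74 with a lower brain difference lie off that line on either side, mostly in the quadrants where the signs differ.

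The called genes mostly combined a difference in one organ with a value near 0 or of the other sign in the other organ. Calling by this contrast favours such combinations by construction, so they are described and nothing is read from how often they occur. Each organ was also tested alone, where 154 genes rose (1.61% of 9570 tested) and 363 fell (3.79%) in overwintered brains, 5.4% in all. In overwintered ovaries 496 rose (5.3% of 9361 tested) and 494 fell (5.28%), 10.6% in all. Among the 83 genes with a lower brain difference, 47 fell in brain and 42 rose in ovary. Both held for 12 of them, 32 fell in brain and missed the threshold in ovary, and 26 rose in ovary and missed it in brain. The median log2 differences of the 32 were -0.74 in brain and 0.11 in ovary, and those of the 26 were -0.21 in brain and 0.92 in ovary. Among the 40 genes with a higher brain difference, 12 rose in brain and 17 fell in ovary, and 1 did both. Without overwintered gyne 1, 18 called genes combined a fall in brain with a rise in ovary, and 5 the reverse. Genes called in brain alone were then 142, in place of 42, and in ovary alone 138, in place of 42. A further setting left out 5 gynes (overwintered 1 and 5, spring-reared 4, 6 and 7), chosen with earlier results of these data known. The values flagged at the end as far from the others belong to overwintered 1 and 5 and spring-reared 6, not to spring-reared 4 or 7. There 6 called genes combined a fall in brain with a rise in ovary, and 3 the reverse. Genes called in brain alone were 78 in that setting, and in ovary alone 62. Of the 106 called genes tested in both organ fits, 86 had differences of opposite sign (81.1%, against 41.5% of all 8613 genes tested in both). A large interaction favours opposite signs by construction, so nothing is read from this share. By the separate tests 1 called gene fell past the threshold in both organs, by more in brain.

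Brain-enriched genes stood at 40 of the 123 and ovary-enriched genes at 18. A gene was called enriched in an organ where it was at least 4-fold higher there, with an adjusted p under 0.05, in the same model averaged over treatments. By this cut 1872 genes (17.9%) were brain-enriched and 1401 (13.4%) ovary-enriched. Among brain-enriched genes 29 had a lower and 11 a higher brain difference (2.14% of the class called), and without overwintered gyne 1 these numbers were 57 and 33. Among ovary-enriched genes 10 had a lower and 8 a higher brain difference (1.28% called). That split turned with the gynes and the method: without overwintered gyne 1, 19 were lower and 22 higher, without the gyne block 18 were lower and 51 higher, and in limma voom 49 were lower and 9 higher with quantile normalization, against 25 lower and 28 higher without it. The 65 other genes met neither cut (0.906% called). In 26 of 33 called brain-enriched genes tested in both organ fits the difference was larger in ovary, against 56.2% of all such genes, but without overwintered gyne 1 this held for 43 of 78.

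Called genes with a lower brain difference were mostly abundant ones. Of the 83 genes with a lower brain difference, 59 had a mean of 100 CPM or more in the organ where they were higher, against 11 of the 40 with a higher one. The class of 100 CPM or more held 31.7% of all genes tested. Of the 11 called genes between 1 and 10 CPM, 9 had a higher and 2 a lower brain difference. That class held 21.5% of all genes tested (0.491% of the class called), and its split was not examined in the alternatives. CPM takes no account of transcript length. In limma voom the split in the highest class was 73 lower and 76 higher with quantile normalization, against 94 lower and 20 higher without it. The direction among abundant genes thus changed with quantile normalization. In edgeR it was 68 lower and 10 higher with RLE factors, and 71 lower and 14 higher with TMM within organs. Without overwintered gyne 1 the split in this class was 215 lower and 36 higher.

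The organ gap itself narrowed in some called genes, widened in others and changed its order in 23. The gap is the fitted log2 brain over ovary within one treatment. It was narrower in overwintered gynes in 59 called genes and wider in 41, against 48.5% and 42.6% of all genes tested. In 23 genes (18.7% of called, against 8.9% of all tested) the fitted gap had opposite signs in the 2 treatments. The sign alone was used, and some of these gaps were near 0, such as -0.0018 in overwintered gynes for 1 gene. A large interaction favours a change of sign by construction, so nothing is read from this share. By construction the 29 brain-enriched genes with a lower brain difference all had a narrower gap, and the 10 ovary-enriched ones a wider gap. Without overwintered gyne 1 the gap was narrower in 174, wider in 151 and of changed order in 96 genes.

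**Figure D2:**
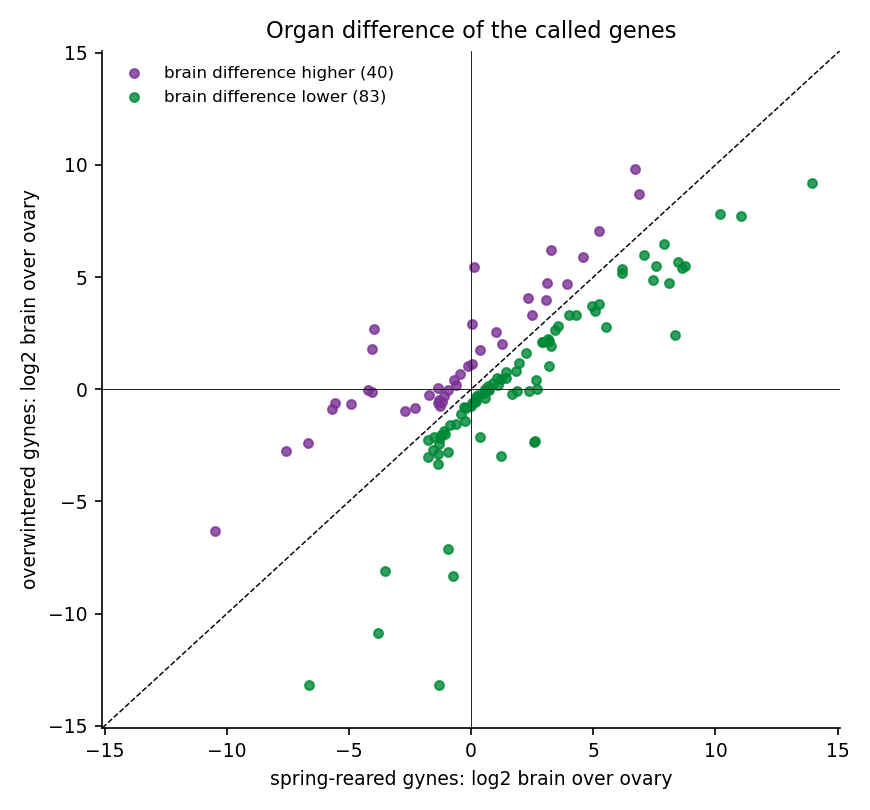
Fitted log2 brain over ovary in overwintered gynes (vertical) against spring-reared gynes (horizontal) for the 123 called genes, 1 point per gene, with equal gaps on the dashed line. The 40 genes above the line have a higher and the 83 below it a lower brain difference, and the 23 in the upper left and lower right quadrants change which organ is higher.

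The lowest p of all was that of SINVBB1_05160, a brain-enriched gene that rose in overwintered ovaries while its brain level differed by less than the spread between gynes. In brain its level ran from 988.4 to 1207 CPM with a median of 1022 in overwintered gynes, against 647.1 to 1300 CPM with a median of 938.0 in spring-reared gynes. In ovary it ran from 20.9 to 52.9 CPM with a median of 35.6 in overwintered gynes, against 3.35 to 7.71 CPM with a median of 5.53 in spring-reared gynes. The brain ranges overlapped, and every overwintered ovary lay above every spring-reared ovary. The ovary difference was 2.72 on the log2 scale (SE 0.19, edgeR adjusted p = 3.5e-07) and the brain difference 0.10 (SE 0.12, adjusted p = 0.686). The interaction value was -2.58 (SE 0.20, edgeR adjusted p = 9.52e-07). It was called in all 34 alternatives at a threshold of 0.05, from -2.71 to -2.17.

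SINVBB1_04723, also brain-enriched, fell in brain and rose in ovary. Its brain level ran from 443.1 to 722.7 CPM with a median of 601.9 in overwintered gynes, against 861.4 to 1495 CPM with a median of 1152 in spring-reared gynes. Its ovary level ran from 12.59 to 32.97 CPM with a median of 21.3 in overwintered gynes, against 1.76 to 9.17 CPM with a median of 3.90 in spring-reared gynes. The groups did not overlap in either organ. The brain difference was -0.91 (SE 0.12, edgeR adjusted p = 3.33e-04) and the ovary difference 2.39 (SE 0.27, adjusted p = 8.12e-05). The interaction value was -3.35 (SE 0.33, edgeR adjusted p = 2.73e-05), and the gap between organs was 4.76 in overwintered and 8.11 in spring-reared gynes on the log2 scale.

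Among genes with a higher brain difference, SINVBB1_08946 had the lowest p. It fell past the threshold in ovary, and its higher level in brain missed the threshold. It is brain-enriched and near the limit of detection in ovary, where the 8 overwintered libraries held 92 counts and the 8 spring-reared libraries 222. Its ovary level ran from 0.486 to 1.10 CPM with a median of 0.647 in overwintered gynes, against 0.970 to 2.71 CPM with a median of 1.75 in spring-reared gynes. Its brain level ran from 227.0 to 400.1 CPM with a median of 306.7 in overwintered gynes, against 155.8 to 313.9 CPM with a median of 208.4 in spring-reared gynes. Both pairs of ranges overlapped, but the log2 ratios within gynes did not, at 6.49 to 7.04 in overwintered and 5.06 to 6.48 in spring-reared gynes. The ovary difference was -1.34 (SE 0.29, edgeR adjusted p = 0.00660), the brain difference 0.47 (SE 0.15, adjusted p = 0.0671) and the interaction value 1.81 (SE 0.28, adjusted p = 0.00344). The call was lost with the gyne as a random effect (limma adjusted p = 0.0902; range over 34 alternatives 1.48e-05 to 0.0902).

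SINVBB1_11040 was at similar levels in both organs of spring-reared gynes and higher in brain in overwintered gynes. Its brain level ran from 53.3 to 132.4 CPM with a median of 75.8 in overwintered gynes, against 30.3 to 67.4 CPM with a median of 44.4 in spring-reared gynes. Its ovary level ran from 26.5 to 58.0 CPM with a median of 39.2 in overwintered gynes, against 37.0 to 62.0 CPM with a median of 51.8 in spring-reared gynes. The ranges overlapped in each organ, whereas the log2 ratio within gynes ran from 0.35 to 1.53 in overwintered and from -0.75 to 0.24 in spring-reared gynes, without overlap. The gene rose in brain (0.88, SE 0.20, edgeR adjusted p = 0.0143) and missed the threshold in ovary (-0.31, SE 0.14, adjusted p = 0.163). The interaction value was 1.17 (SE 0.19, edgeR adjusted p = 0.00528), called in all 34 alternatives.

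**Figure D3:**
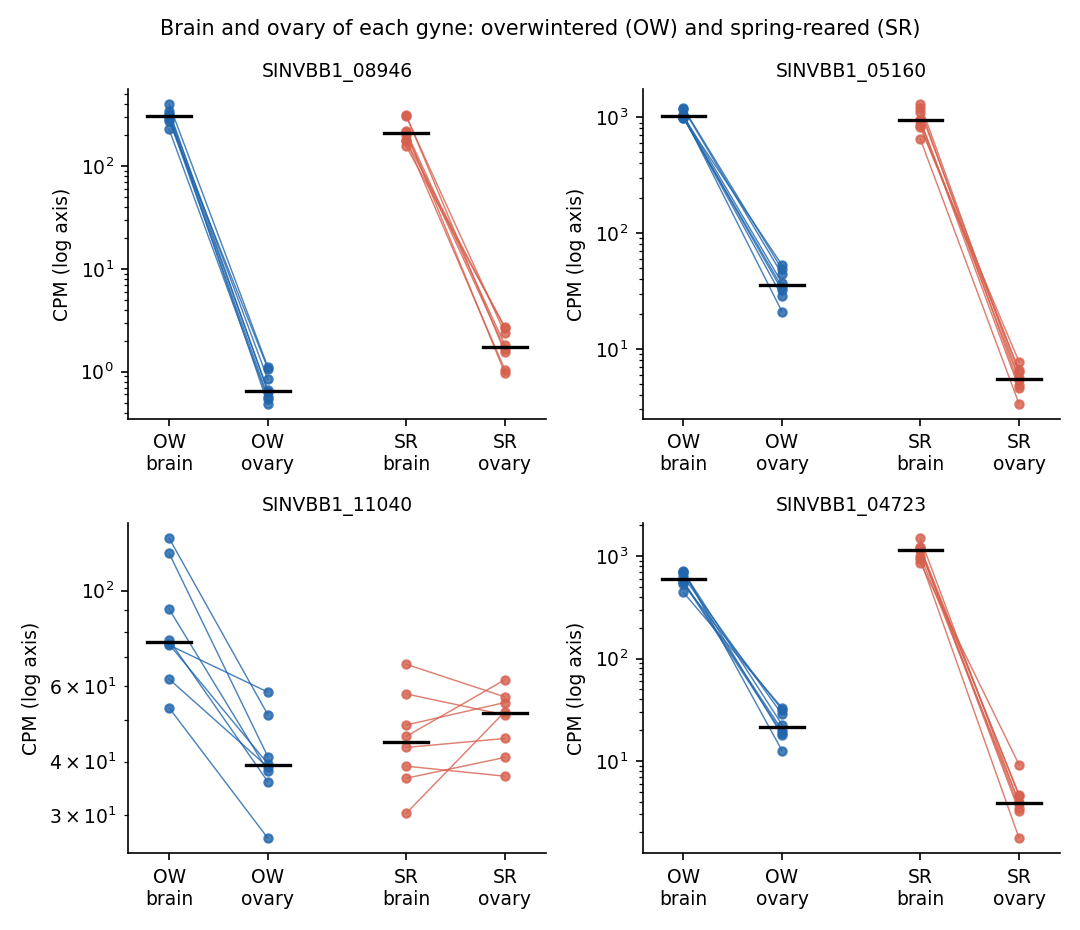
CPM on a log axis in brain and ovary of each gyne, joined by a line, with the group median as a bar, for the 2 genes of lowest p, among those of at least 5 CPM in 1 group, with a higher (left) and a lower (right) brain difference. On the right the ovary level is higher in all 8 overwintered (OW) than in all 8 spring-reared (SR) gynes, and on the lower left the lines of overwintered gynes fall towards ovary while those of spring-reared gynes do not share a direction.

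The next 10 genes with a lower brain difference, ranks 3 to 12 by p among those with a mean of at least 5 CPM in 1 group, had interaction values from -6.17 to -0.92 (edgeR adjusted p from 3.52e-04 to 0.00747). Of these 10, 8 fell in brain and 5 rose in ovary. The ratios did not overlap between treatments in 6 of them, against 0.651% of all genes tested. Ranks went by the p of the same contrast, so nothing is read from this count.

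In the gene ranked 4, enriched in ovary, the difference passed the threshold in brain and missed it in ovary. Its brain level ran from 0 to 2.61 CPM with a median of 1.397 in overwintered gynes, against 15.99 to 69.2 CPM with a median of 41.3 in spring-reared gynes. Its ovary level had a median of 286.9 CPM in overwintered gynes and 396.6 CPM in spring-reared gynes, with overlapping ranges. The 8 overwintered brains held 128 counts in all, 2 of them none, against 4286 counts in spring-reared brains. Its interaction value was -4.60 (SE 0.54, edgeR adjusted p = 3.52e-04).

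The gene ranked 5 changed the organ in which it was higher. It had a median of 14.5 CPM in brain and 58.2 CPM in ovary of overwintered gynes, against 31.3 CPM in brain and 21.6 CPM in ovary of spring-reared gynes. Its log2 ratio ran from -3.07 to -1.22 in overwintered and from -0.70 to 1.06 in spring-reared gynes. In the gene ranked 8 the organs were near level in overwintered gynes, with medians of 18.2 CPM in brain and 20.9 CPM in ovary. Its medians in spring-reared gynes were 36.0 CPM in brain and 11.4 CPM in ovary. Its log2 ratio ran from -0.62 to 0.53 in overwintered gynes, so neither organ was higher throughout. The lowest ratio in spring-reared gynes was 0.97. The genes ranked 5 and 8 both fell in brain and rose in ovary by the separate tests.

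The gene ranked 11 had a median of 5.33 CPM in brain and 73.0 CPM in ovary of overwintered gynes, against 680.8 CPM in brain and 177.3 CPM in ovary of spring-reared gynes. It fell in brain (log2 difference -6.03, SE 0.86, edgeR adjusted p = 0.00137), and its ovary difference of -1.68 (SE 0.53, adjusted p = 0.0558) had the same sign. Its interaction call was lost with the gyne as a random effect (limma adjusted p = 0.0715). The gene ranked 9 varied widely within groups. Its ovary level ran from 33.8 to 856.4 CPM in overwintered and from 0.912 to 140.7 CPM in spring-reared gynes, while its brain level stayed under 6 CPM in all 16 gynes. Its call was lost without the gyne block and with the gyne as a random effect.

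The next 10 genes with a higher brain difference, ranks 3 to 12 by the same rule, had interaction values from 0.75 to 5.32 (edgeR adjusted p from 0.00727 to 0.0170). Of these 10, 6 rose in brain and 4 fell in ovary. The ratios did not overlap in 3, against 0.651% of all genes tested, and nothing is read from this count either. The gene ranked 5, enriched in brain, was the 1 gene of the 123 that rose in brain and fell in ovary. Its brain level had a median of 224.6 CPM in overwintered gynes and 111.2 CPM in spring-reared gynes, and its ovary level 7.08 CPM in overwintered gynes and 13.2 CPM in spring-reared gynes. All overwintered ovaries, at 5.86 to 8.99 CPM, lay below all spring-reared ovaries, at 9.17 to 16.6 CPM, and the brain ranges overlapped. Its interaction value was 1.65 (SE 0.29, edgeR adjusted p = 0.00747), called in all 34 alternatives.

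In 3 of these 10 genes, all enriched in ovary when averaged over treatments, overwintered brains held low levels where spring-reared brains held few counts. In overwintered gynes the fitted gap was -0.13 for rank 3, -0.60 for rank 6 and -6.30 for rank 8. In spring-reared gynes it was -4.04, -5.59 and -10.46, so ranks 3 and 6 were not 4-fold higher in ovary of overwintered gynes. The gene ranked 3 had a median of 8.60 CPM in overwintered brains and 0.331 CPM in spring-reared brains (811 and 36 counts), with ovary medians of 6.69 CPM in overwintered gynes and 4.75 CPM in spring-reared gynes. The gene ranked 6 had a median of 3.82 CPM in overwintered brains and 0.246 CPM in spring-reared brains (576 and 64 counts). The gene ranked 8 ran from 1.05 to 10.1 CPM in overwintered brains, whereas 7 of 8 spring-reared brains held no count and 1 held 1.54 CPM. Its ovary medians were 192.7 CPM in overwintered gynes and 209.4 CPM in spring-reared gynes. Its call was lost when the 5 gynes named above were left out (edgeR adjusted p = 0.0830). These brains are also the libraries in which more genes were detected, 11006 ± 250.3 in overwintered and 10215 ± 240.1 in spring-reared brains (SD, n = 8 each).

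**Figure D4:**
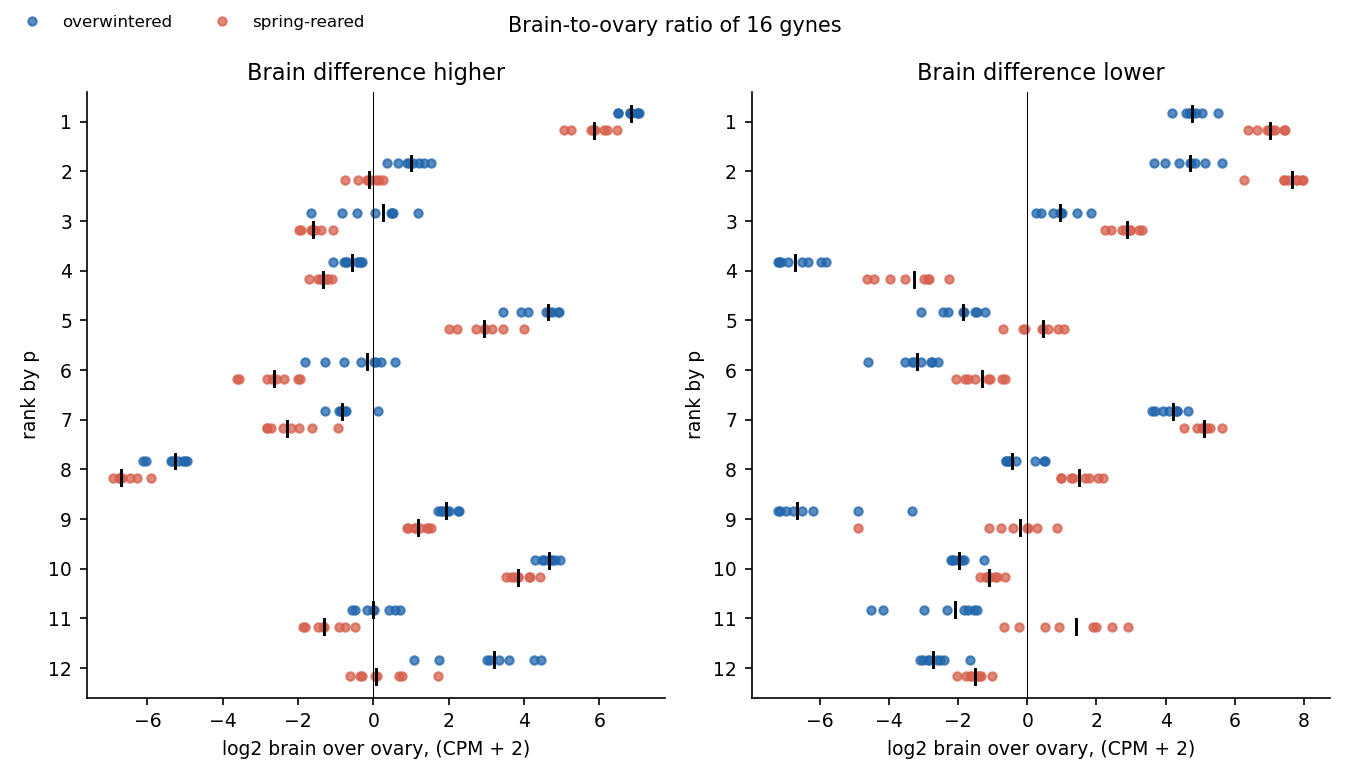
Log2 brain over ovary, from CPM + 2, in each of the 16 gynes (horizontal) for the 12 genes of lowest p in each direction among called genes with a mean of at least 5 CPM in 1 group (vertical, by rank), with overwintered gynes above spring-reared gynes and the median as a bar. In the left panel the overwintered medians lie to the right of the spring-reared medians, and in the right panel to the left, at every rank shown.

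Over all genes, the distance between brain and ovary missed the threshold by 4 of 5 settings, and the gap in the number of genes detected differed. The root mean square log2 ratio was 1.90 ± 0.0508 in overwintered and 1.88 ± 0.0470 in spring-reared gynes (SD, n = 8 each; exact two-sided permutation p = 0.614). As 1 minus Spearman's rho between the organs, it was 0.323 ± 0.0121 in overwintered and 0.309 ± 0.0118 in spring-reared gynes (SD, n = 8 each; exact permutation p = 0.0309, unadjusted). The other 3 settings had p from 0.391 to 0.582 (exact permutation tests, n = 8 each), and in 2 of them the distance was smaller in overwintered gynes. Genes detected in brain minus those in the ovary of the same gyne averaged -312.0 ± 178.0 in overwintered gynes, against -747.6 ± 245.3 in spring-reared gynes (SD, n = 8 each; exact permutation p = 0.00140, adjusted p = 0.00466 over 6 library measures). With counts thinned to the smallest library these gaps were -159.0 in overwintered and -698.6 in spring-reared gynes (exact permutation p = 6.22e-04, n = 8 each). Multimapping reads exceeded those of the ovary by 2.49 percentage points in overwintered and 3.79 in spring-reared brains (adjusted p = 0.00466, exact permutation test, n = 8 each). Total gene counts in brain minus ovary averaged -1973670 in overwintered and 1597080 in spring-reared gynes (adjusted p = 0.00466, exact permutation test, n = 8 each). The other 3 measures, reads left unmapped, reads outside genes and the share taken by the top 10 genes, had adjusted p from 0.0902 to 0.923 (exact permutation tests, n = 8 each). With counts thinned to the smallest library 124 genes were called, 38 higher and 86 lower, with 109 of the 123 among them. The part of the other measures in the gene results was not tested.

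**Figure D5:**
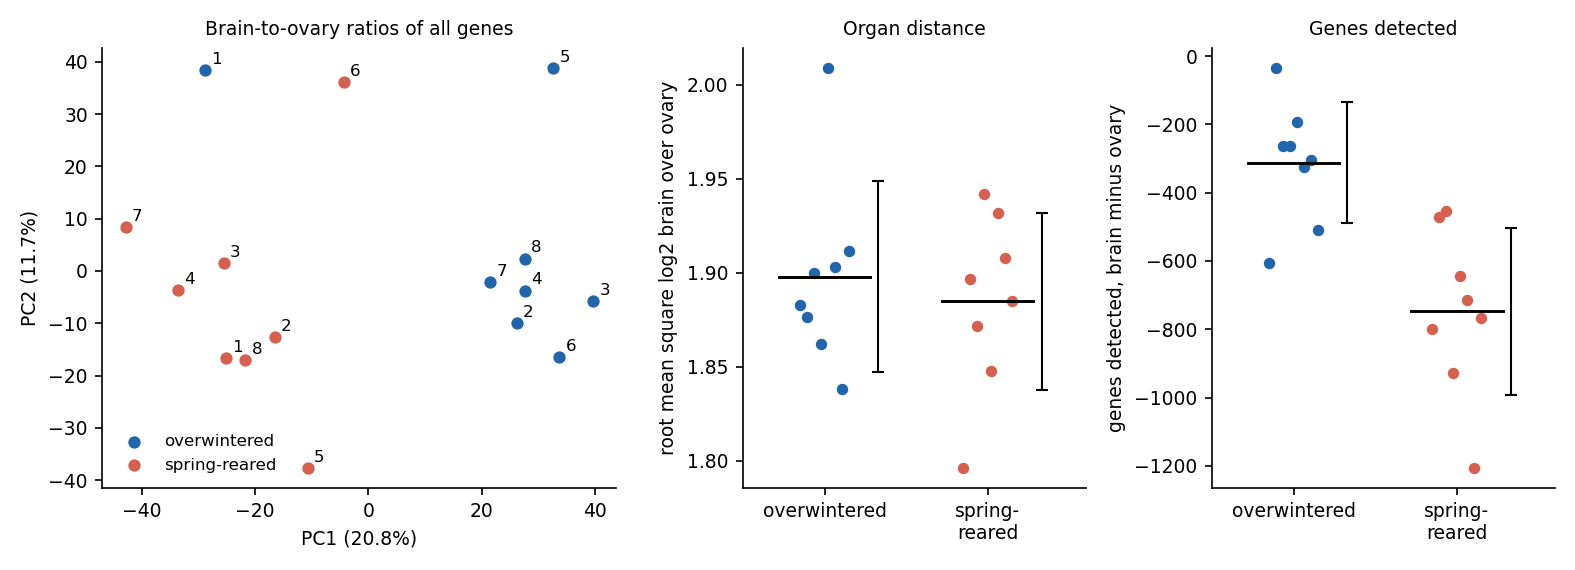
Left, principal components 1 and 2 of the log2 brain-to-ovary ratios, 1 point per gyne with its replicate number. Middle and right, organ distance (root mean square log2 ratio over all genes) and genes detected in brain minus ovary, 1 point per gyne, with the mean as a line and the SD as a bar beside the 8 points. Overwintered gyne 1 lies with the spring-reared gynes on the left, the distances of the 2 treatments overlap, and the gap in genes detected averages -312.0 in overwintered and -747.6 in spring-reared gynes.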

How the data were processed

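The deposited files hold 1 column of whole-number counts per gene model for each library, made by the authors. The submitters' processing notes list STAR 2.7.3a, Trim Galore 0.6.5 and edgeR. The annotation and the genome build were not given in the sources used here. Since these libraries keep no strand, overlapping genes on opposite strands cannot be separated. Reads shared by near-identical copies cannot be assigned to one of them. The 4 lines that name no gene stayed out of library sizes and tests. The authors also deposited CPM of 7655 brain and 8031 ovary genes, used to filter genes in an alternative. They matched CPM recomputed from the counts of the listed genes (largest relative difference 5.1e-15 in brain and 5.01e-15 in ovary).

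Tests ran on the counts in edgeR 4.0.16 under R 4.3.3 (TMM, filterByExpr, robust dispersions, quasi-likelihood F-test, Benjamini-Hochberg threshold 0.05). The interaction model held 1 term per gyne and brain over ovary in each treatment, with 14 residual degrees of freedom and 1 dispersion per gene, although brains varied more than ovaries (common biological coefficient of variation 0.461 in brain and 0.306 in ovary). CPM uses TMM factors over all 32 libraries. Brain and ovary of a gyne are paired by the labels, and their deviations from the group means correlated at 0.130 on average (-0.09 to 0.32 over 16 gynes). Every pair of replicates differed beyond sampling noise (lowest chi-square divided by its degrees of freedom 18.7).

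For each direction, the 2 identifiers with the lowest p and a mean of at least 5 CPM in 1 group are printed, and ranks 3 to 12 are described without one. Members, rules and alternatives were chosen with earlier results of these data known; pattern counts without some gynes were added after the data were seen. Fits were tested on simulated data. Exact permutation tests used scipy 1.17.1; alternatives used limma 3.58.1 and DESeq2 1.42.0.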

Additional observations from a re-analysis of the deposited data

Results flagged for a closer look

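Of 62 groups of 8 values examined, 7 held a value far from the others, where chance gives about 1 in 20. The same gynes recur among the 7, so these values are not independent of each other. The organ distance of overwintered gyne 5 was 2.01, against 1.84 to 1.91 in the other overwintered gynes. In overwintered gyne 5 the share of the 10 most abundant genes was lower in brain than in ovary by 6.48 percentage points (a difference of -6.48), against 0.114 to 3.201 in the others. For SINVBB1_04723 the log2 brain-to-ovary ratio of spring-reared gyne 6 was 6.27, against 7.42 to 7.99 in the others. Among genes with a lower brain difference, the ratio of rank 6 in overwintered gyne 5 was -4.62, against -3.54 to -2.59. For rank 9, the ratio in spring-reared gyne 6 was -4.89, against -1.11 to 0.85. For rank 10, the ratio in overwintered gyne 1 was -1.27, against -2.20 to -1.84. Among genes with a higher brain difference, the ratio of rank 7 in overwintered gyne 5 was 0.12, against -1.29 to -0.73.

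The treatment difference differed between brain and ovary in 123 genes by the interaction test. Among them were SINVBB1_05160 (interaction value -2.58), SINVBB1_04723 (-3.35), SINVBB1_08946 (1.81) and SINVBB1_11040 (1.17), and the gene ranked 5 among the higher ones (1.65). The brain-minus-ovary difference, overwintered minus spring-reared, was 435.6 for genes detected, -1.29 percentage points for multimapping reads and -3570750 for total gene counts (adjusted p = 0.00466 each, exact permutation tests, n = 8 each).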

How the results depend on the processing

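The count of 123 called genes was 285 with no replicate block and 209 with the replicate number as the block. Limma voom called 233 genes with the gyne block and 304 with the gyne as a random effect. With the block it called 236 with 1 quality weight per organ, 612 with a weight per library and 273 with quantile normalization; DESeq2 called 568. Limma on the log2 ratio per gyne called 273 with a pseudocount of 1 and 210 with 0.5. At a threshold of 0.01 the count was 26. It ranged from 73 to 421 without each gyne in turn and was 214 without the 5 gynes named above. The cause was not tested. It stayed within 1.5 times under RLE factors, TMM within organs, 4 other filters and thinned counts (103 to 140 genes). Of the 24 genes described by rank, 0 changed sign in any alternative, but several lost their call at a threshold of 0.05. Besides the losses given above, rank 9 among the higher ones lost its call in 3 alternatives (highest edgeR adjusted p = 0.101). Ranks 7 and 10 among the higher ones lost it in 1 each (edgeR adjusted p = 0.0528 and 0.0514).

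With the replicate number as a block, the brain count was 308 in place of 517 and the ovary count 469 in place of 990; these numbers do not pair gynes across treatments. Without each library in turn they ranged from 323 to 604 in brain and from 712 to 1177 in ovary. The organ distance differed by 0.0130 between treatments. The difference was -0.0166 with a pseudocount of 0.5 CPM, -0.0223 over genes of 1 CPM or more in each organ, 0.0142 as 1 minus Spearman's rho and -0.00283 to 0.0216 without each gyne. The gap in genes detected differed by 370.1 to 477.7 without each gyne. Genes under a few CPM in one organ rest on few counts, so their fitted interaction values are imprecise and can be large. The largest, -11.86 (SE 1.79), rests on 2 counts in overwintered and 12 in spring-reared brains. For the gene ranked 8 among the higher ones, the value ran from 3.90 to 8.23 without each gyne. Only the ratios from CPM + 2 are limited in size by the added 2 CPM.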
